A study of Mus musculus with 24 samples.

Results

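The 10 genes described here, Prox1, C1ql2, C1ql3, Calb1, Dsp, Plk5, Tdo2, Lct, Npnt and Rasl10a, are known for their expression in dentate granule cells, and they were taken by name from 55385 gene identifiers. Plk5 and Dsp were added because of their change on day 13, so their values in comparisons with day 13 mice are given as a description, with no test. Hippocampal RNA of 24 adult mice was sequenced, 4 mice (A to D) in each of 6 groups. Every mouse carried floxed Tsc1 (Tsc1f/f) and received tamoxifen. Tsc1-Cre- controls lacked the Camk2a-CreERT2 transgene and were taken on day 8. Tsc1-Cre+ mice carried it and were taken on day 4, 6, 8 or 13, counted from the deletion. Tsc1-Cre+-Rap 4 mice (Rap 4) carried it too, received rapamycin, an inhibitor of the kinase mTOR, at 10 mg/kg daily from day 4, and were taken on day 13. The transgene acts in CAMK2A-expressing neurons, so cells without it kept Tsc1, and no control group was taken on day 13.

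Dentate granule cells are the principal neurons of the dentate gyrus. They receive the main cortical input to the hippocampus and project to area CA3 through the mossy fibers. The transcription factor PROX1 sets and maintains their identity, calbindin (Calb1) buffers their calcium, and C1QL2 and C1QL3 are secreted at mossy fiber synapses. Loss of calbindin from granule cells is a known feature of mouse models with frequent seizures. TSC1 is part of the complex that holds back mTOR.

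Levels are CPM, the read counts brought to a common library size with TMM factors over all 24 mice. The libraries held between 28208561 and 126435936 counts (median 55582027). Here called means that edgeR's quasi-likelihood test on the 8 mice of a comparison gave an adjusted p below 0.05 with a log2 fold change beyond 0.5 in either direction. Tsc1 checked the labels: it measured 105 ± 3.21 CPM (SD, n = 4) in controls and 78.4, 72.5, 72.5, 63.6 and 67.3 CPM on average on day 4, 6, 8, 13 and in Rap 4 mice, and all 20 Tsc1-Cre+ mice lay below every control. The library names open with a number, here called the name series, and the labels do not say what it stands for. Controls and day 8 mice shared 2 of these series, A and B in one and C and D in the other, while the other groups had series of their own, so for those groups series and time point cannot be told apart. The tissue was measured in bulk, so the cells that a change came from are not known. Fewer granule cells and less RNA per granule cell cannot be told apart in any result given here.

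Each of the 10 genes was found and passed the filter on low counts in all comparisons. Per kilobase of exon (RPKM), the order of the levels in controls was C1ql2 22.1, C1ql3 17.0, Calb1 16.6, Prox1 15.9, Lct 15.2, Rasl10a 13.0, Dsp 11.3, Plk5 8.74, Npnt 3.72 and Tdo2 1.86. On GRCm38 (GENCODE M21), Prox1 lies at chr1:190118035-190170714 on the minus strand, Calb1 at chr4:15881264-15908064, Plk5 at chr10:80356459-80365489, Dsp at chr13:38151294-38198577 and Rasl10a at chr11:5058128-5060385, the last 4 on the plus strand. Upstream sequence is shown for the gene that fell most on day 13, Plk5, for Dsp, which was chosen with it, and for the gene that rose, Rasl10a. The 250 bases before each RefSeq start (GRCm38.p6, plus strand, RefSeq) are chr10:80356209-80356458 for Plk5, chr13:38151044-38151293 for Dsp and chr11:5057878-5058127 for Rasl10a, the last within the span of Gas2l1 on the opposite strand. Capitals mark E-box matches.
Plk5: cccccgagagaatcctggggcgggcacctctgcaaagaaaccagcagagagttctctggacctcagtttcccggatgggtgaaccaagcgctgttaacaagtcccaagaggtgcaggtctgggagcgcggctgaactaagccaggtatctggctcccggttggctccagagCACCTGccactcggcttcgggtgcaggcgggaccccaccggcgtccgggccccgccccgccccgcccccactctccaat
Dsp: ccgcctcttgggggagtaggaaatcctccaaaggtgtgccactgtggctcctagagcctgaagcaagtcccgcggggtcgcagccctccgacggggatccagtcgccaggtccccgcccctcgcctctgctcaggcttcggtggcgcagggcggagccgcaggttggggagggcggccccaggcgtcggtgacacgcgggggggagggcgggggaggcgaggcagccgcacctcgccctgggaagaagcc
Rasl10a: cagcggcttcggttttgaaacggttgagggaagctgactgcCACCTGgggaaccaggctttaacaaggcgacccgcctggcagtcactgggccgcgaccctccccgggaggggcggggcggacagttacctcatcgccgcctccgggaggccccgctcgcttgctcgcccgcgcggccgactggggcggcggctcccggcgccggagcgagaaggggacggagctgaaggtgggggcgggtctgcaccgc
Both strands were searched for the palindromic cAMP response element TGACGTCA, its short form TGACG, the AP-1 site TGANTCA and the E-box CANNTG, which overlap where the short form lies inside the palindrome. Over 32851 promoters of 27025 genes, 1.55%, 17.8%, 6.75% and 66.2% held these motifs. Plk5 and Rasl10a each held 1 E-box match and none of the other letters, and Dsp held none of the 4 motifs. Of the 10 genes, 9 had a promoter entry (Calb1 had none), with 11 entries between them, and the only match to a cAMP response element was 1 short form in one of the entries of Npnt.

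**Figure D1:**
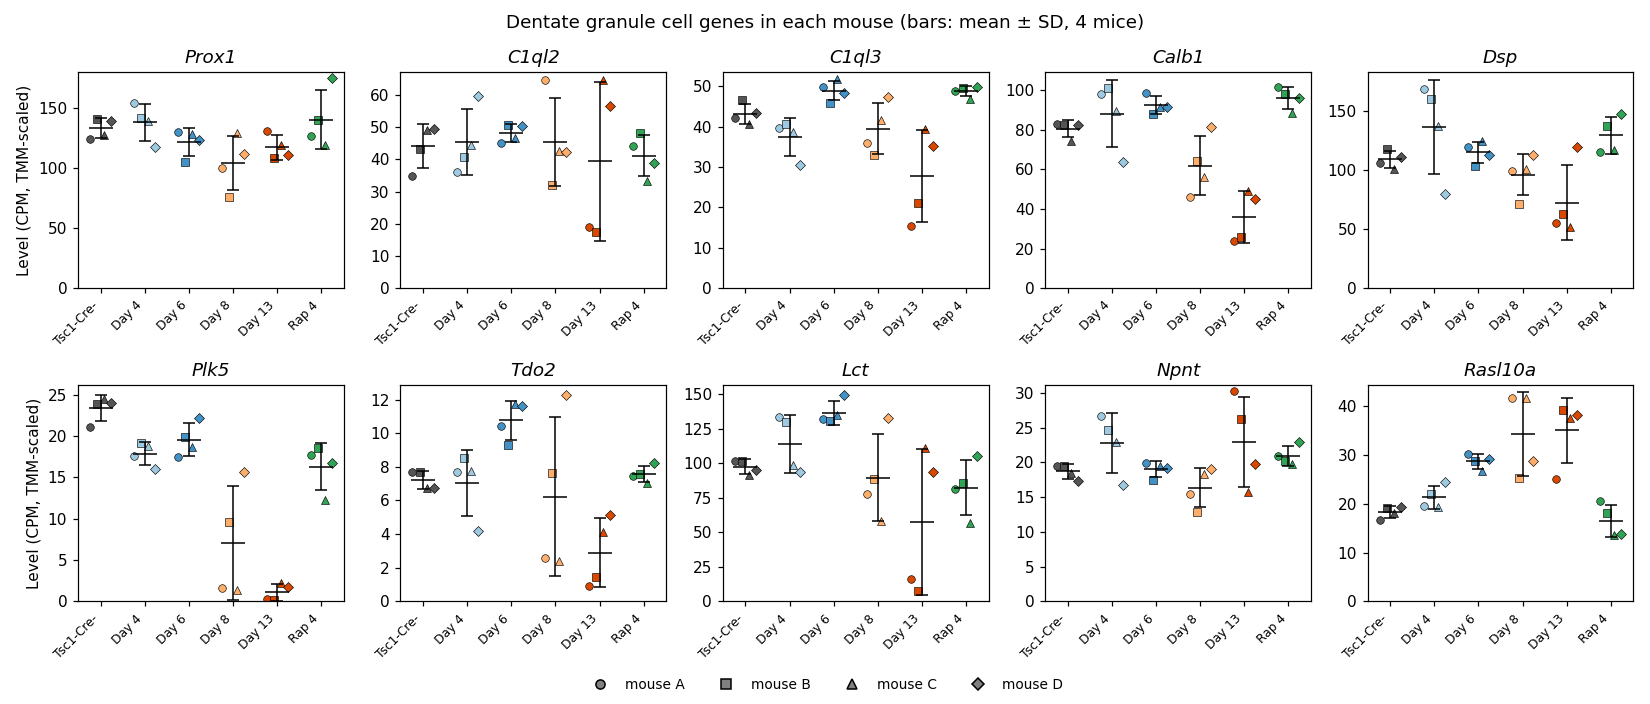
Level of each gene (CPM, TMM-scaled, linear axis from 0) in each of the 24 mice, with the mean and SD of each group of 4; the symbol gives the mouse. Plk5 was at or below 2.22 CPM in all 4 day 13 mice, against 21.1 to 24.5 CPM in controls, while Prox1 stayed between 75.6 and 175 CPM in every mouse.

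Plk5 encodes an atypical polo-like kinase of neurons that lacks kinase activity and is linked to neurite growth. Controls measured 21.1, 23.9, 24.5 and 24 CPM in mice A to D. Day 4 mice measured 17.5, 19.1, 18.7 and 16 CPM, and day 6 mice 17.5, 19.9, 18.7 and 22.1 CPM. Day 4 mice lay below every control, and the day 6 range overlapped that of the controls. The log2 fold change was -0.39 (SE 0.0701, adjusted p = 0.0107) on day 4 and -0.27 (SE 0.0758, adjusted p = 0.0384) on day 6, both under the fold-change limit. On day 8 the mice split widely, with 1.67, 9.59, 1.33 and 15.6 CPM. All were below the controls, mice A and C far below, but the log2 fold change of -1.74 (SE 0.592) did not pass the test (adjusted p = 0.0774). Without day 8 mouse D it was -2.48 (adjusted p = 0.0154). Within the shared name series, the day 8 minus control difference was -2.45 in the series of mice A and B and -2.36 in that of mice C and D. On day 13 Plk5 was at 0.246, 0.179, 2.22 and 1.70 CPM, from 16, 21, 78 and 67 reads, and the log2 difference from controls, on which it was chosen, was -4.62. Rap 4 mice measured 17.7, 18.5, 12.2 and 16.7 CPM. That was below every control, with a called log2 fold change of -0.52 (SE 0.108, adjusted p = 0.0193). The call was lost without control mouse B, C or D or Rap 4 mouse C, with values from -0.60 to -0.41 over the 8 mice left out.

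Calb1 was the member that fell with a call on day 13. Controls measured 83.2, 82.4, 74.2 and 82.6 CPM. Day 13 mice measured 24, 25.7, 49.0 and 45.1 CPM, all below the controls, and the log2 fold change was -1.19 (SE 0.225, adjusted p = 0.00557). The call held with each of the 8 mice left out (-1.35 to -1.03). On day 8, mice A to D measured 46.1, 64.3, 56.0 and 81.2 CPM, a range that overlapped the controls, with a log2 fold change of -0.39 (SE 0.14, adjusted p = 0.0878), which reached -0.55 (adjusted p = 0.00614) without mouse D. Earlier, the mean level was not lower. Day 4 mice measured 98.3, 101, 89.8 and 63.9 CPM, with mouse D below every control. Their log2 fold change was 0.13 (SE 0.110, adjusted p = 0.579). Day 6 mice measured 98.8, 87.8, 91.5 and 91.5 CPM, all above the controls. Their log2 fold change of 0.19 (SE 0.0451, adjusted p = 0.0182) was under the limit of 0.5. Rap 4 mice, at 102, 98.1, 88.4 and 96.2 CPM, also lay above the controls (log2 fold change 0.25, SE 0.0544, adjusted p = 0.0222). Rap 4 exceeded day 13 by 1.43 on the log2 scale (SE 0.224, adjusted p = 0.00181), with all 8 leave-one-out fits called. Among the other EF-hand calcium buffers, Calb2, Pvalb and S100g, edgeR called 0 of 3 on day 13, against 16.5% of all genes. At an unadjusted p under 0.05 were 0 of the 3, against 40.5% of all genes. DESeq2 and the fit of all 24 mice called 0.

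Tdo2 encodes tryptophan 2,3-dioxygenase, the enzyme that opens the kynurenine pathway, and in the brain it is best known in the dentate gyrus. Controls measured 7.71, 7.69, 6.73 and 6.73 CPM, and day 6 mice 10.4, 9.30, 11.7 and 11.6 CPM. It rose on day 6 by 0.57 (SE 0.0910, adjusted p = 0.00179), with no overlap with the controls and a call in all 8 leave-one-out fits, though not in the fit of all 24 mice. On day 8 it was at 2.58, 7.62, 2.40 and 12.3 CPM. Mice A and C were below and mouse D above every control, and the mean difference was -0.22 (SE 0.43, adjusted p = 0.778). Day 13 mice measured 0.923, 1.43, 4.12 and 5.12 CPM, all below the controls. The log2 fold change of -1.36 (SE 0.463) missed the threshold (adjusted p = 0.0537), and it passed without mouse C or mouse D (-1.82 without D). Rap 4 mice measured 7.43, 7.56, 7.03 and 8.20 CPM, within the range of controls apart from mouse D, and exceeded day 13 by 1.42 (SE 0.455, adjusted p = 0.0382). That call was lost without day 13 mouse B or any one of the Rap 4 mice (smallest of all 8 values 1.12). Of the other 10 genes of the pathway, 7 were tested on day 13 and 1 was called, against 16.5% of all genes. This was Ido2, at -1.38 (adjusted p = 0.0427), from 1.44 to 0.594 CPM. Without any one control or day 13 mouse A or B, Ido2 was not called.

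The C1q-like proteins are ligands that bind the adhesion receptor ADGRB3 and assemble kainate receptors at mossy fiber synapses. C1ql3 was at 42.3, 46.6, 40.6 and 43.4 CPM in controls and at 15.3, 21.2, 39.5 and 35.2 CPM on day 13. The groups did not overlap, but the log2 fold change of -0.66 (SE 0.258) did not pass (adjusted p = 0.0863). DESeq2 on the same mice and the fit of all 24 mice called it, with adjusted p of 0.0449 and 0.00709. Rap 4 mice measured 49.0, 49.6, 47.0 and 49.8 CPM and exceeded day 13 by 0.82 (SE 0.254, adjusted p = 0.0334). Leaving out day 13 mouse B or any one of the Rap 4 mice ended that call. Gm37824 shares exon sequence with C1ql3 on the opposite strand and was at -1.14 on day 13 (adjusted p = 0.00845), so reads of these genes may mix where strand was not counted. C1ql2 was at 34.7, 43.3, 49.2 and 49.4 CPM in controls and at 18.9, 17.5, 64.7 and 56.6 CPM on day 13. Mice A and B lay below every control and mice C and D above, so that the mean difference was small against its error (-0.18, SE 0.404, adjusted p = 0.765). Of the 6 other genes of the family and its partners, 5 were tested (all but C1ql4). On day 13, 1 of them was called, against 16.5% of all genes. This was the receptor gene Adgrb3 (-0.54, SE 0.144, adjusted p = 0.0224). The call was lost without control mouse A, C or D or day 13 mouse A or B. Grik2, at -0.44, did not overlap the controls and was not called.

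Lct encodes lactase, an intestinal enzyme whose transcript is also found in granule cells. Controls measured 102, 102, 91.5 and 94.8 CPM. Day 6 mice, at 132, 131, 135 and 149 CPM, lay above all of them (log2 fold change 0.48, SE 0.0498, adjusted p = 8.0e-05, just under the limit of 0.5). Day 13 mice split widely, with 16.4, 7.66, 111 and 93.6 CPM. Mice A and B were far below the controls while mouse C was above them and mouse D among them, and the mean difference of -0.78 (SE 0.68) did not pass (adjusted p = 0.416). Rap 4 mice measured 81.1, 85.9, 56.7 and 106 CPM.

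Dsp encodes desmoplakin, the plakin that ties desmosomes to intermediate filaments. Controls measured 106, 118, 101 and 111 CPM. Day 4 mice measured 168, 160, 137 and 79.7 CPM, 3 above and 1 below the controls (0.33, SE 0.169, adjusted p = 0.335). Without day 4 mouse D, the only day 4 mouse with its name series, the value was 0.51, a call. Day 13 mice, on which it was chosen, measured 54.7, 62.9, 52.0 and 119 CPM: mouse D lay above the controls and the others below, with a log2 difference of -0.61. Rap 4 mice measured 115, 137, 117 and 147 CPM (0.25 against controls, SE 0.0779, adjusted p = 0.101). Of 12 other desmosome and plakin genes, 9 were tested on day 13 and edgeR called 0, against 16.5% of all genes. At an unadjusted p under 0.05 were 2, against 40.5% of all genes. DESeq2 called 1, and so did the fit of all 24 mice. Ppl, another plakin, was the 1 gene called of 8 tested on day 6 (-0.83, adjusted p = 0.00133), against 1.32% of all genes. The fit of all 24 mice did not call Ppl.

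Npnt encodes nephronectin, a matrix ligand of integrin alpha 8 (Itga8). Controls measured 19.5, 19.5, 18.5 and 17.3 CPM and day 13 mice 30.3, 26.2, 15.7 and 19.8 CPM. Mice A and B were above the controls, mouse C below and mouse D just above, and the mean difference of 0.28 (SE 0.175) did not pass (adjusted p = 0.26). The receptor gene Itga8 fell from 56.3 to 22.7 CPM on day 13 (-1.33, SE 0.223, adjusted p = 0.00332), a call that held in all 8 leave-one-out fits, and by 0.55 on day 8 (log2 fold change -0.55, adjusted p = 0.0248), a call lost without control mouse A, B or D or day 8 mouse A or C. Its partner subunit Itgb1 rose by 0.59 on day 13 (adjusted p = 0.0175), a call lost without control mouse A, C or D or day 13 mouse B. Frem2 (-0.93) and Egfl6 (-1.09) did not overlap the controls and were not called. Of the 6 other genes of this list, 2 were called, with 5 in the fit of all 24 mice. Of all genes, 16.5% were called, and 5789 of 27110 in the fit of all 24 mice.

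Rasl10a encodes a small GTPase of the RAS family. Controls measured 16.7, 19.1, 18.1 and 19.5 CPM, day 4 mice 19.6, 21.9, 19.3 and 24.5 CPM, and day 6 mice 30.2, 28.8, 26.7 and 29.1 CPM. It was the member called at 3 time points: day 6 (0.64, SE 0.0625, adjusted p = 4.88e-05), day 8 (0.89, SE 0.148, adjusted p = 0.00365) and day 13 (0.91, SE 0.138, adjusted p = 0.00210). Day 8 mice measured 41.6, 25.3, 41.6 and 28.8 CPM and day 13 mice 25.1, 39.2, 37.7 and 38.3 CPM, all above every control, and each call held in all 8 leave-one-out fits. Within the shared name series the day 8 difference was 0.86 and 0.88. Rap 4 mice measured 20.5, 18.0, 13.5 and 13.9 CPM, close to controls (-0.16, SE 0.118, adjusted p = 0.522) and below day 13 by 1.08 on the log2 scale (log2 fold change -1.08, SE 0.178, adjusted p = 0.00226). Gas2l1 lies on the opposite strand and shares exon sequence with Rasl10a. The strand setting of the counting is not given in the sources used here. How reads over the sequence shared by the pair were assigned is therefore not known. Gas2l1 itself was at 0.24 on day 6 (adjusted p = 0.0101) and 0.28 on day 13 (adjusted p = 0.0361).

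Prox1, the identity factor, was not called in any comparison. Controls measured 124, 141, 127 and 139 CPM, day 8 mice 99.8, 75.6, 130 and 112 CPM, and day 13 mice 131, 108, 119 and 111 CPM. Both groups overlapped the controls. The log2 fold change was -0.37 (SE 0.130, adjusted p = 0.0888) on day 8 and -0.20 (SE 0.0806, adjusted p = 0.0915) on day 13, neither called, and Rap 4 mice measured 127, 140, 119 and 175 CPM. Prox1os, which shares exon sequence on the opposite strand, was at -0.64 on day 8 (adjusted p = 0.0304) and -0.66 on day 13 (adjusted p = 0.00610). It averaged 2.8 CPM in controls and 1.8 CPM on day 13, against 133 and 117 CPM for Prox1. As the strand setting of the counting is not given, how reads over the shared sequence were assigned is not known.

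**Figure D2:**
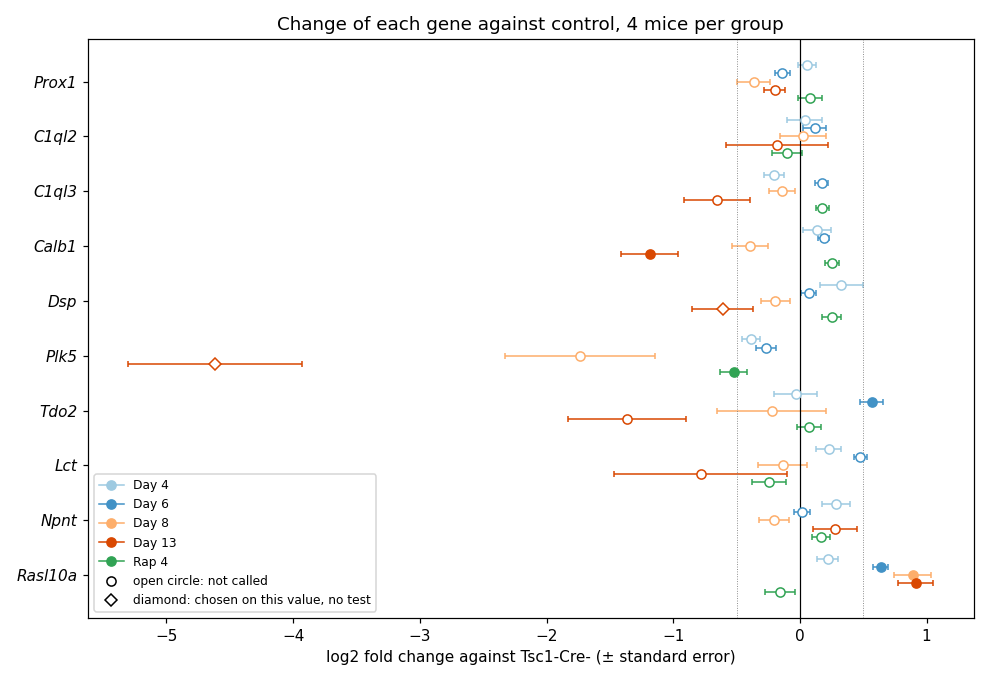
Log2 fold change against Tsc1-Cre- with its standard error for each gene on day 4, 6, 8, 13 and in Rap 4 mice (4 mice per group); filled circles are called and diamonds mark the day 13 values on which Plk5 and Dsp were chosen. Calb1 lay at -1.19 and Rasl10a at 0.91 on day 13, and Rap 4 values lay between -0.52 and 0.25.

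Counted by comparison, edgeR called 0 of the 10 genes on day 4, against 0.68% of all genes tested. At an unadjusted p under 0.05 were 5 of the 10, against 18.4% of all genes. DESeq2 and the fit of all 24 mice called 0 of the 10, against 209 and 29 of all genes. On day 6 it called 2 (Tdo2 and Rasl10a, both higher), against 1.32% of all genes, and on day 8 it called 1 (Rasl10a), against 3.99%. On day 13, of the 8 genes not chosen on that contrast, 2 were called (Calb1 lower, Rasl10a higher), against 16.5% of all genes. Rap 4 against control gave 1 call (Plk5 lower), against 1.41%, and Rap 4 against day 13 gave 4 of 8 (C1ql3, Calb1 and Tdo2 higher, Rasl10a lower), against 21.1%. The comparisons share control or day 13 mice. Day 13 against day 8 gave 0 of 8, against 0% of all 24747 genes tested. At an unadjusted p under 0.05 were 2 members, against 14.1% of all genes. DESeq2 called 0 members, against 238 of all genes. The fit of all 24 mice called 1, Calb1, against 1343 of all genes. On day 13, Calb1, C1ql3 and Tdo2 were the 3 of these 8 genes whose mice all lay below the controls, against 13.7% of all genes. In order of mean level over the 6 groups, neighbouring groups overlapped for every gene except C1ql3 (Rap 4 above Tsc1-Cre-), Tdo2 (day 6 above Rap 4) and Rasl10a (day 6 above day 4).

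**Figure D3:**
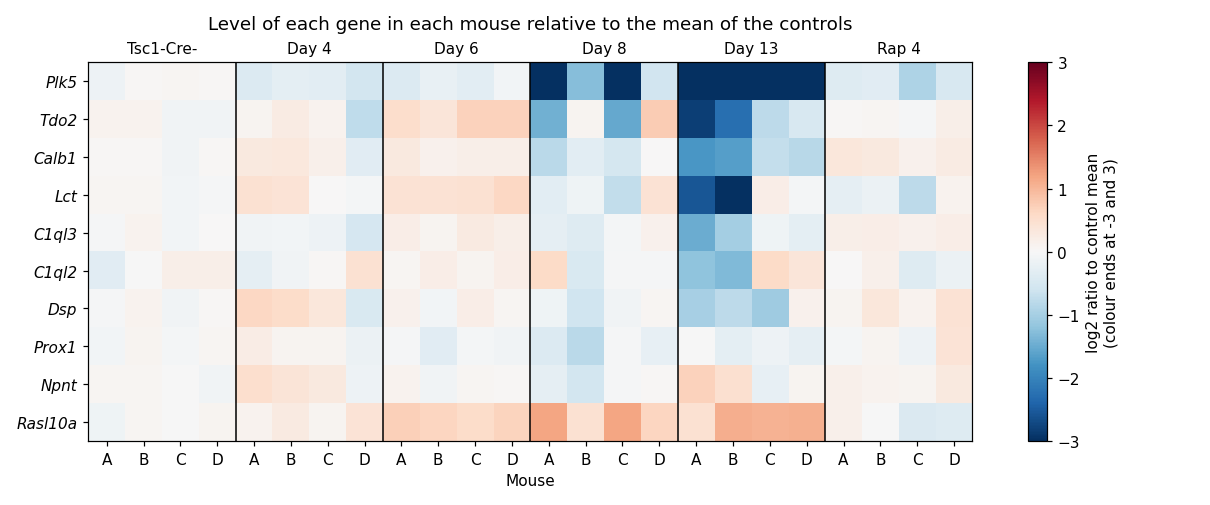
Log2 ratio of each gene (rows) to the mean of the controls in each mouse (columns), with colours ending at -3 and 3. Day 13 mice A and B are lower in Lct, C1ql2, C1ql3 and Calb1 than mice C and D, and day 8 mice A and C are the lower pair in Plk5 and Tdo2.

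The members did not move together in every mouse. Over the 10 genes, the median log2 ratio to the control mean was -1.35 in day 13 mouse A and -1.17 in mouse B, and -0.20 and -0.16 in mice C and D. As Plk5 and Dsp are among the 10 and were chosen on day 13 values, the day 13 medians and order are a description. Mice A and B were the 2 lowest of the day 13 group in 6 of the 10 genes: C1ql2, C1ql3, Calb1, Tdo2, Lct and the chosen Plk5. Over all 18259 genes with at least 1 CPM on average, they were the 2 lowest in 25.2%. Mice A and B of day 13 share a name series, and C and D come from another each, so the mouse and its series cannot be told apart. On day 8, mice A and C were the 2 lowest in 4 genes, Plk5, Tdo2, Calb1 and Lct, against 20.1% of all genes, and mice A and B in another 4, Prox1, C1ql3, Dsp and Npnt, against 14.7%. Such pairs were also found in other groups. Mice C and D were the 2 lowest in 6 genes on day 4 (18.3% of all genes), mice B and D in 5 on day 6 (23.4%), and in Rap 4 mice A and C in 5 (16.5%). Day 4 mouse D had a median log2 ratio of -0.26, with 8 of the 10 genes below the control mean. This mouse was the only one of day 4 with its name series, so mouse and series cannot be told apart.

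Among 16 further genes known from granule cells, 5 fell and 1 rose on day 13, against 16.5% of all genes called. Their median log2 fold change was -0.42, against -0.04 over all genes tested. As this list was chosen with earlier results of these data known, its counts are a description and not independent support. The 3 largest changes were Trpc6, a calcium-permeable channel (-1.35, SE 0.0660, from 64.6 to 25.6 CPM), Lrrtm4, a synaptic adhesion protein of granule cell dendrites (-1.22, SE 0.207), and Rfx3, a transcription factor (-1.0, SE 0.108, from 271 to 137 CPM). Dock10 and Stxbp6 also fell, Ppp1r1a rose (0.75), and Dgkh (-0.50) and Maml2 (-0.43) did not overlap the controls and were not called. The count of 6 called genes ranged from 4 (without control mouse B or D or day 13 mouse A, when Dock10 and Stxbp6 were lost) to 9 (without day 13 mouse D). On day 8, against 3.99% of all genes called, 4 fell (Trpc6, Rfx3, Glis3 and Lrrtm4) and Ppp1r1a rose, 5 calls that became 2 without day 8 mouse B and 6 without day 8 mouse D; Trpc6 was called there in no leave-one-out fit except that without mouse D. On day 4 Fam163b was the 1 called gene, at 0.89 (adjusted p = 0.00123), against 0.68% of all genes, and the fit of all 24 mice did not call it. Against controls in Rap 4 mice, 1.41% of all genes were called and 18.1% had an unadjusted p under 0.05. Of the 16, edgeR called 0, with 4 at an unadjusted p under 0.05. DESeq2 and the fit of all 24 mice called 0 of the 16. Rap 4 exceeded day 13 in 8 of them and was lower in Ppp1r1a, against 21.1% of all genes called, 9 calls that became 6 without Rap 4 mouse D. Zbtb20 and Bcl11b, transcription factors also found in other hippocampal neurons, were at -0.01 and -0.21 on day 13, neither called.

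**Figure D4:**
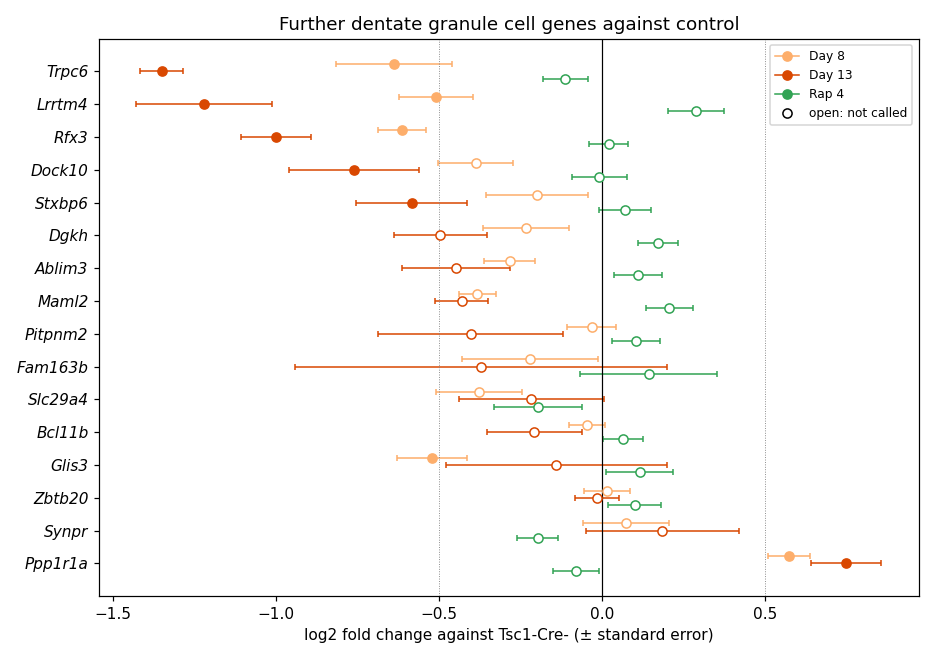
Log2 fold change against Tsc1-Cre- (± standard error) of the 16 further granule cell genes on day 8, day 13 and in Rap 4 mice; filled circles are called. Trpc6, Lrrtm4 and Rfx3 were at -1.35, -1.22 and -1.0 on day 13. In Rap 4 mice 0 of the 16 were called, and their median was 0.09.

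In the polo-like kinase family, Plk2 and Plk3, activity-regulated kinases, had values opposite in sign to that of Plk5. On day 13 Plk2 rose from 244 to 579 CPM (1.22, SE 0.175, adjusted p = 0.00166) and Plk3 from 6.66 to 13.2 CPM (0.97, SE 0.258, adjusted p = 0.0219). The call of Plk3 was lost without control mouse A, B or C. Plk1 (0.19) and Plk4 (-0.09) were not called. The calls were thus 2 of 4 other family genes, against 16.5% of all genes. Across all 24 mice, the 5 genes whose log2 CPM was most like that of Plk5, of 18239 with a mean of at least 1 CPM, were Rbm24 (Pearson r = 0.97), Lmo3 (0.97), Itga8 (0.97), A630036G19Rik (0.966) and Pnck (0.964). Those most like Prox1 were Cald1 (0.848), F830212C03Rik (0.809), Gm28172 (0.804), Gm42896 (0.797) and Prox1os (0.78), of which Gm28172 and Prox1os overlap Prox1. These values describe mice that share groups and name series, and are given with no test.

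Markers of other cells were read beside these results. On day 13, when 16.5% of all genes were called, 1 gene was called in each of the CA1 list of 5, the CA2 list of 4 and the CA3 list of 6 pyramidal markers, all higher (Pou3f1 0.69, Rgs14 0.67, Homer3 0.92), and 2 of 7 in the pan-neuronal list, higher (Tubb3 1.00, Nefl 0.67). In the list of 6 immature granule cell genes, Sox11 rose (1.74) and the median was -0.14. In 6 astrocyte markers Gfap rose (1.91, from 190 to 729 CPM) and Gja1 fell (-0.93, a call lost without any one control or day 13 mouse A or B), and their summed level was 1228 to 2141 CPM against 1106 to 1150 CPM in controls. Gfap made up that rise, and the median log2 fold change of the list was -0.02. Of the interneuron, mossy cell, microglia, endothelial and choroid plexus lists, edgeR called 0 of 7, 4, 6, 5 and 6 genes. At an unadjusted p under 0.05 were 4, 0, 0, 3 and 0 of them, against 40.5% of all genes tested. DESeq2 and the fit of all 24 mice called 0 in these lists. Choroid plexus markers summed to 40.8 to 428 CPM on day 13 against 60.6 to 1683 CPM in controls. In the thalamus and habenula list, Prkcd fell (-1.72) on day 13, and the list summed to 28 to 54.4 CPM against 54.3 to 150.0 CPM in controls, none of its genes at 0.

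Other markers also moved in the comparisons of day 8 and Rap 4 mice. On day 8, Cnp of oligodendrocytes was called lower (-0.51), a call lost without control mouse B or D or day 8 mouse A or C and in the fit of all 24 mice. Gja1 (-0.56) was lower and Homer3 (0.67) and Tubb3 (0.73) higher on day 8. In Rap 4 mice against controls, where Plk5 was called lower, 3 of 6 astrocyte, 2 of 6 microglia and 1 of 5 endothelial markers were also called lower, against 1.41% of all genes called, with list medians of -0.39, -0.46 and -0.23. Examples are Gfap (-0.77), Aif1 (-0.67) and Cldn5 (-0.68). The oligodendrocyte gene Cnp was also lower (-0.66), and the fit of all 24 mice called 1 gene in each of the 3 lists. Their summed levels were 877 to 928, 166 to 187 and 162 to 172 CPM in Rap 4 mice, against 1106 to 1150, 221 to 266 and 191 to 214 CPM in controls, ranges that did not overlap. In Rap 4 against day 13, 21.1% of all genes were called. Of the astrocyte markers, 5 of 6 were called (4 lower, Gja1 higher). So were 3 of 7 pan-neuronal, 2 of 6 microglia and 2 of 5 endothelial markers, all lower. The part of these cells in the members' values was not tested. The part of tissue outside the dentate gyrus in the results was not tested.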

How the data were processed

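The authors trimmed reads with CutAdapt 1.16.5, aligned them with STAR 2.7.2b to GRCm38 and counted them per GENCODE M24 gene with featureCounts 1.6.4 (versions partly from the submitters' processing notes). They deposited raw counts per gene, 1 library per mouse, of stranded rRNA-depleted total RNA. The strand setting and the handling of reads with several alignments are not given in the sources used here. Names and coordinates came from GENCODE M21, in which 55144 of 55385 identifiers were found, and promoters from RefSeq.

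Groups and mouse letters came from the sample titles. Each comparison of 8 mice was fitted with edgeR 4.0.16 (R 4.3.3: filterByExpr, TMM, quasi-likelihood test, Benjamini-Hochberg adjustment over all genes tested), and the standard error was the absolute log2 fold change over the square root of F. Total counts per mouse, 28208561 to 126435936, limit the precision of low genes such as Plk5 on day 13. Likeness used log2(CPM + 0.1). Alternatives were DESeq2 1.42.0, a fit of all 24 mice, DESeq2 size factors, no filter and no fold-change limit. Others were the mouse letter or, on day 8, the name series as a block, Xist as a covariate and each mouse left out. Counts thinned to the smallest library were chosen after seeing the data. The fits were tested on simulated data.

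The members and lists were chosen with earlier results of these data known. All 10 members are named; other lists are given by their counts, with at most the 3 called genes of largest change and genes whose mice did not overlap on day 13, and the genes named beyond that, such as Zbtb20 and Bcl11b, were chosen after their values were seen. Nothing in the labels gives the sex of a mouse. Mice are separate animals. Results for 1 marker gene, and the counts and sums of its list, are not reported here.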

Additional observations from a re-analysis of the deposited data

Results flagged for a closer look

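In 60 sets of 4 mice (10 genes in 6 groups), 3 had a mouse far from the other three by Dixon's test, which chance alone gives in about 1 of 20. Calb1 was lowest in control mouse C, at 74.2 CPM, against 82.4 to 83.2 CPM in the other controls. Dsp was highest in day 13 mouse D, at 119 CPM, against 52.0 to 62.9 CPM. Rasl10a was lowest in day 13 mouse A, at 25.1 CPM, against 37.7 to 39.2 CPM.

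The change from control differed between day 13 mice with and without rapamycin in 4 genes, by the direct edgeR comparison of Rap 4 with day 13. The log2 differences were 0.82 for C1ql3, 1.43 for Calb1, 1.42 for Tdo2 and -1.08 for Rasl10a, and those of Calb1 and Rasl10a were called in every leave-one-out fit.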

How the results depend on the processing

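Under the alternatives, 89 of 113 counts of called members stayed within 1.5 times the reported one. No called log2 fold change of a member changed sign. Where the reported count was 0, on day 4 and for day 13 against day 8, staying meant 0 again. In day 13 against day 8 the reported fit called 0 of all 24747 genes, so its repeated 0 says little about stability. The fit of all 24 mice called 1 member on day 6, 2 on day 8, 4 on day 13, 0 for Rap 4 against control and 1 for day 13 against day 8. Of the 27110 genes it tested, it called 84, 997, 5789, 162 and 1343 in these comparisons. Without a fold-change limit there was 1 call on day 4, 6 on day 6 and 2 for Rap 4 against control. The share of all genes called without that limit was not counted. With no filter, and with Xist as a covariate, day 8 had 2 calls, and with Xist Rap 4 against control had 0. Over all genes, these 3 fits called 1027 of 40844, 995 of 25085 and 291 of 25006. Leaving out each mouse in turn gave 0 to 1 calls on day 4, 1 to 3 on day 8, 2 to 4 on day 13 (4 without day 13 mouse C), 0 to 1 for Rap 4 against control and 2 to 4 for Rap 4 against day 13. Over all genes, the same fits called 83 to 211, 586 to 1491, 2800 to 5305, 235 to 348 and 3608 to 6025. The cause of these changes was not tested.

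Mouse letters name different animals. Correlations of same-letter deviations ran from -0.285 to 0.145 over the comparisons and were not all over 0.1 in any, so letters were not taken as pairs; no more than 1 of 4 mice correlated best with its own letter. With the letter as a replicate block, 2 members were called on day 8 (Plk5 joining Rasl10a) and 3 on day 13 (Tdo2 joining), and the counts of the other 5 comparisons stayed as reported. With this block, 797 of 25085 genes were called on day 8 and 3546 of 24920 on day 13. At 16 to 78 reads, small differences in Plk5 among day 13 mice cannot be resolved.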
